A study of Mus musculus with 9 samples.

Results

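The proteasome is the large protease that degrades proteins tagged with ubiquitin. A barrel of alpha and beta rings, the core particle, holds the cutting sites inside, and a regulatory particle docked on its end recognizes tagged proteins, removes the ubiquitin, unfolds the protein with a ring of ATPases and feeds it into the barrel. In cells exposed to interferon, the 3 constitutive catalytic subunits Psmb5, Psmb6 and Psmb7 can be replaced in new particles by Psmb8, Psmb9 and Psmb10, giving the immunoproteasome, whose peptide products feed antigen presentation. The constitutive proteasome genes described here are all symbols of the feature table that begin with Psma, Psmb, Psmc or Psmd followed by a number, without the immunoproteasome subunits Psmb8, Psmb9 and Psmb10 and the thymus subunit Psmb11. The rule used no measured value, and it found 35 genes among 32286 features, on 16 chromosomes. They comprise 15 genes of the core particle (7 of the alpha ring, the testis-specific alpha subunit Psma8, 4 non-catalytic beta subunits and the 3 catalytic ones), 17 of the regulatory particle (6 ATPases, 3 other subunits of the base and 8 of the lid) and 3 chaperones that help to assemble the base (Psmd5, Psmd9 and Psmd10).

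Single-cell RNA sequencing from the 5' end of transcripts was done on whole-tumour suspensions from female BALB/c mice, bought at 5 to 6 weeks of age, that had received 168FARN cells, a mouse mammary tumour line, by injection into the mammary fat pad (MFP). There were 3 libraries from tumours of WT cells, 3 from Kmt2c KO cells and 3 from Kmt2d KO cells, in which Cas9 and pooled guides against exon 1 of a single H3K4 methyltransferase gene had been expressed transiently before sorting. No clones were isolated, so the libraries of a genotype are separate tumour samples from 1 edited population, and p-values measure the spread between these samples, not between independent knockouts. Cells of the 3 genotypes carried an integrated H2B-mCherry reporter, counted as the feature H2BMc. The matrix gives each library a letter (C, D or X) and not its label, and C was taken for Kmt2c KO, D for Kmt2d KO and X for WT, from the names that the study gives its comparisons. The numbers of libraries used below only name them.

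Of 89147 barcodes, 58645 passed the filters, and 16707 of these held at least 1 unique molecular identifier (UMI) of H2BMc. Of the latter, 1472 with a UMI of the host genes Ptprc, Pecam1 or Cdh5 were left out, and the other 15235 were taken as tumour cells (335 to 3142 per library, 8935073 to 43005352 UMIs). Macrophages (701 cells, 29 to 174 per library) and endothelial cells (410 cells, 29 to 67 per library) were gated on at least 3 of 8 markers of their class, at most 1 of the other class and no UMI of H2BMc or Krt8. H2BMc itself was found in 28.5% of all cells that passed the filters (median 7112 UMIs per cell), in 8.67% of the 842 cells with 3 macrophage markers (median 2720.5) and in 4.22% of the 450 with 3 endothelial markers (median 5345.5). The smaller classes gave 108625 to 532030 and 170213 to 484086 UMIs per library, so their levels are less precise. The summed macrophage markers lay between 5.6 and 18.1 UMIs per 1000000 (CPM) in the tumour cells and between 9276.6 and 14071.2 CPM in the macrophages, and the endothelial markers between 0.2 and 1.5 CPM in the tumour cells and 6782.4 and 8220.2 CPM in the endothelial cells. Markers that a gate used were set by it, among them Pecam1 and Cdh5 at 0 in the tumour cells, so these sums are no independent check. The epithelial marker Krt8 was found in 79.3% of tumour cells, whereas Krt18 was found in only 0.125% of them. Krt8 was also found in 62.1% of all cells that passed the filters, so many cells with Krt8 lay outside the tumour gate. The gated tumour cells were deeper than all cells that passed the filters, with a median of 11428 against 7112 UMIs. The fibroblast gene Pdgfra was found in 52.3% of tumour cells, and the summed fibroblast list reached 109.9 to 314.2 CPM, so the label tumour cell rests on the reporter and on the absence of those 3 host genes. Kmt2c (42.9 to 58.3 CPM) and Kmt2d (14.2 to 32.4 CPM) transcripts were still counted in tumour cells of the 9 libraries, and since small deletions in exon 1 need not lower the count, they check no label. Between 26.6% and 68.5% of the barcodes of a WT library and between 13.0% and 29.5% of those of a KO library exceeded the mitochondrial limit. Of the tumour cells, 312 (2.05%) shared a barcode sequence with another library. Kmt2d KO library 2 stood apart from the other two of its genotype in the immunoproteasome genes and in the share of tumour cells with a UMI of the proliferation genes Mki67 or Top2a (52.4%, the highest of the range that began at 27.1%).

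The upstream sequence is shown for Psmb5, Psmb6, Psmd6 and Psmc4, some of the genes named in the results below, in the GRCm38.p6 (mm10) build. The element TGACNNNGC, a core of the antioxidant response element that is bound by the transcription factors Nfe2l1 and Nfe2l2, activators of proteasome genes, was searched on both strands in a RefSeq promoter window from 250 bases before to 50 bases after the start of a gene, and it is in capitals. Windows were given for 28 of the 35 genes, and Psmb7 has none. The 120 bases before the start that the promoter table uses were as follows, for Psmb5 at chr14:54617996-54618115 on the minus strand, Psmb6 at chr11:70525237-70525356 on the plus strand, Psmd6 at chr14:14120946-14121065 on the minus strand and Psmc4 at chr7:28050093-28050212 on the minus strand.
Psmb5: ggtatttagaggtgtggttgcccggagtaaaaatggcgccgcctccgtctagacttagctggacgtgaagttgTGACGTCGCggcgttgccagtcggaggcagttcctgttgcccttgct
Psmb6: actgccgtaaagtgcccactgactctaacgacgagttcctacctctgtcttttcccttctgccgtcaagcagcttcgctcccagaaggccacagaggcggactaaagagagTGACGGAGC
Psmd6: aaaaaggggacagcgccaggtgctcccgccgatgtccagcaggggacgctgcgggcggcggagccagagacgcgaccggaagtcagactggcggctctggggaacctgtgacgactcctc
Psmc4: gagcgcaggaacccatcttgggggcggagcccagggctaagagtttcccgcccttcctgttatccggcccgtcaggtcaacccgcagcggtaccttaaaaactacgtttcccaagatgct
The RefSeq record of Psmb6 begins at position 70525324, inside the stretch shown, so its element lies past that start. The records of the other 3 genes begin just after their stretches. Within these stretches the element was in Psmb5 and Psmb6 and its letters were in neither Psmd6 nor Psmc4. Over the whole windows it was in 5 of the 30 windows of proteasome genes (16.7%), those of Psmb5, Psmb6, Psmc6, Psmd12 and Psmd9, against 12.4% of all 32851 windows. The CCAAT box was in 11 of the 30 (36.7%) against 37.4% of all windows, and the 2 motifs can overlap by 1 base.

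The constitutive proteasome genes together made up a nearly constant part of the transcripts of tumour cells. Their summed level was 5058, 4976 and 5182 CPM in WT, 5062, 4863 and 4595 CPM in Kmt2c KO and 4928, 4747 and 4961 CPM in Kmt2d KO libraries. Kmt2c KO overlapped WT and the 3 Kmt2d KO libraries were below the 3 WT ones. The core particle summed to 2867 ± 57.6 CPM in WT (SD, n = 3), 2716 ± 145 CPM in Kmt2c KO and 2747 ± 50.7 CPM in Kmt2d KO tumour cells, and the regulatory particle to 2103 ± 45.5, 2021 ± 86.4 and 2028 ± 60.0 CPM, with no test made on these sums. The core sum of Kmt2d KO did not overlap that of WT, whereas the regulatory sums of the 3 genotypes overlapped. In tumour cells with no UMI of Mki67 or Top2a the core sums were 2502, 2545 and 2471 CPM in WT and 2557, 2376 and 2494 CPM in Kmt2d KO libraries. These ranges overlapped. The ratio of regulatory to core particle transcripts varied little, from 0.729 to 0.756 over the 9 libraries (mean 0.739 ± 0.008 SD), and the 3 catalytic subunits made up 15.9% to 17.4% of the core particle sum. Of single genes, Psma8, the alpha subunit of spermatogenic cells, had 3 UMIs in all tumour cells (95% Poisson interval 0.619 to 8.77, counting error only), 3 in macrophages and 10 in endothelial cells (4.80 to 18.4), and it could not be tested in any class. The other 34 genes passed the count filter in tumour cells.

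**Figure D1:**
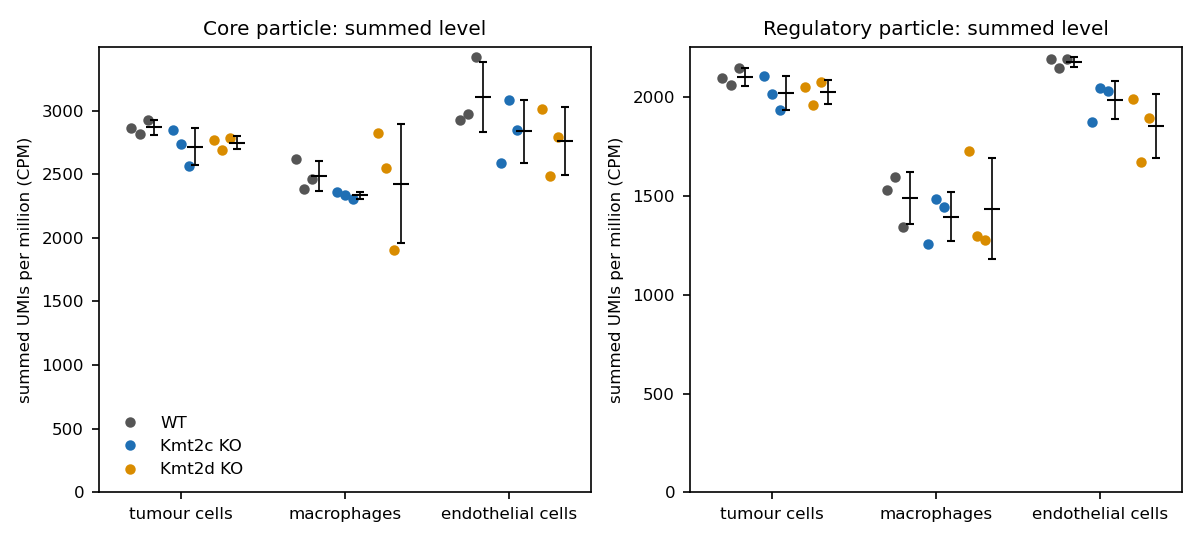
Summed levels (CPM, y axis) of the core particle and regulatory particle genes (panels) in tumour cells, macrophages and endothelial cells (x axis). Each panel has 1 point per library coloured by genotype and bars for the mean and SD of 3 libraries. Tumour cells lay between 2561 and 2927 CPM for the core particle, macrophages between 1906 and 2822 CPM. Over all tumour cells Kmt2d KO lies below WT without overlap for the core particle. The same was so in tumour cells with a UMI of Mki67 or Top2a, and was not so in those without. Both knockouts lie below WT for the regulatory particle in endothelial cells.

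Kmt2c loss was first compared with WT in tumour cells, by summing counts per library and testing all genes together. Of the 34 genes tested, 1 was called at an adjusted p below 0.05 by the edgeR quasi-likelihood test, and it was lower. Over all 13764 genes tested, 9.87% were called higher and 9.3% lower, so the count among the proteasome genes was not above the background. The median log2 fold change of the 34 genes was -0.04 against 0.00 over all genes, and the median of its absolute value was 0.15 against 0.23. The called gene was Psmd6, a scaffold subunit of the lid. Psmd6 stood at 104.4, 95.9 and 100.1 CPM in WT libraries, at 68.2, 65.7 and 62.5 CPM in Kmt2c KO libraries and at 87.8, 75.5 and 88.7 CPM in Kmt2d KO libraries. Each KO library was below each WT library, and the Kmt2c KO libraries were also below the Kmt2d KO ones. The level in Kmt2c KO was 0.656-fold that of WT (log2 fold change -0.61 ± 0.09 SE, adjusted p = 0.0025), and it stayed called under all 17 alternatives, with log2 fold changes between -0.62 and -0.48 and adjusted p between 3.51e-07 and 0.0155.

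Of the other genes with the smallest p, Psma1, a subunit of the alpha ring that gates the barrel, was at 92.4, 90.5 and 101.3 CPM in WT and 78.0, 78.1 and 66.0 CPM in Kmt2c KO libraries (log2 fold change -0.35 ± 0.12 SE, adjusted p = 0.058). Psmd2, the large base subunit on which ubiquitin-binding shuttle proteins dock, was at 172.4, 166.2 and 167.7 CPM in WT, 211.0, 201.7 and 185.8 CPM in Kmt2c KO and 199.1, 203.5 and 208.3 CPM in Kmt2d KO libraries. Its 3 Kmt2c KO libraries and its 3 Kmt2d KO libraries were above the 3 WT libraries, but the difference of Kmt2c KO from WT missed the threshold (0.25 ± 0.08 SE on the log2 scale, adjusted p = 0.063). DESeq2 called both of these genes beside Psmd6 (3 in all, adjusted p = 0.0395 for Psma1 and 0.0349 for Psmd2), and in tumour cells without a UMI of Mki67 or Top2a Psma7, Psmd6 and Psmd2 were called. Kmt2d KO library 2 enters this contrast only through the shared steps, the count filter, the scaling and the estimate of spread. Without it 4 genes were called, Psma1, Psmd6 and Psmd13 lower and Psmd2 higher. Without Kmt2c KO library 3 there were 3 (Psmb2, Psmd6 and Psmd2). Thus the genes beside Psmd6 depended on the settings. The shares of all genes called under these settings are not given, so these counts have no background beside them.

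The 3 catalytic subunits did not pass the test. Psmb5, which carries the chymotrypsin-like activity, was at 188.8, 189.5 and 181.3 CPM in WT, 168.9, 162.1 and 140.3 CPM in Kmt2c KO and 192.6, 156.6 and 187.1 CPM in Kmt2d KO libraries. Its Kmt2c KO libraries were below the WT ones, with a log2 fold change of -0.24 ± 0.11 SE (95% interval -0.49 to 0.00, adjusted p = 0.154). Psmb6, with the caspase-like activity, was at 238.4, 223.8 and 222.7 CPM in WT, 224.2, 198.1 and 212.6 CPM in Kmt2c KO and 213.7, 213.5 and 222.9 CPM in Kmt2d KO libraries (-0.11 ± 0.07 SE for Kmt2c KO, adjusted p = 0.337). Psmb7, with the trypsin-like activity, was at 70.5, 70.6 and 72.1 CPM in WT, 76.9, 73.7 and 86.0 CPM in Kmt2c KO and 65.3, 86.1 and 64.2 CPM in Kmt2d KO libraries (0.15 ± 0.11 SE for Kmt2c KO, adjusted p = 0.368). For Psmb6 and Psmb7 the groups overlapped or nearly touched.

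Among the 34 genes, 13 had all 3 Kmt2c KO libraries below all 3 WT libraries and 3 had all above (Psmb7, Psmd2 and Psmd10). Over all genes tested, 21.3% lay below and 20.5% above in this way. For Kmt2d KO, 8 genes lay below all WT libraries (Psma3, Psmb3, Psmb4, Psmc4, Psmc5, Psmd6, Psmd12 and Psmd13) and 2 above (Psmd2 and Psmd10), with 10.3% of all genes below and 13.4% above. Without Kmt2d KO library 2 there were 11 below and 6 above, with 17.7% and 24.4% of all genes. The 2 genotypes share their WT libraries, so these counts are not independent of each other.

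**Figure D2:**
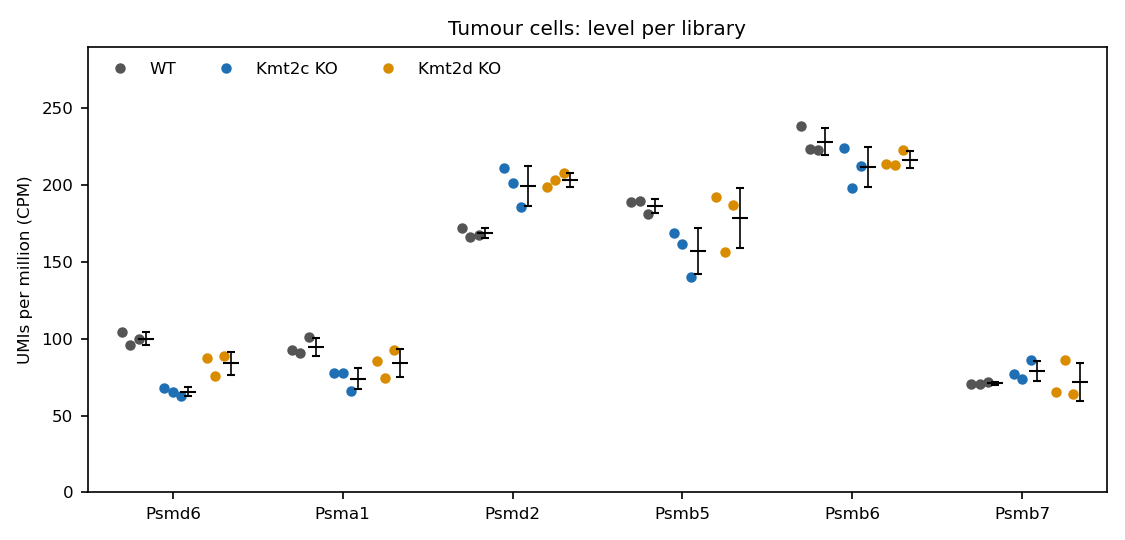
Level in tumour cells (CPM, y axis) of Psmd6, Psma1, Psmd2 and the catalytic subunits Psmb5, Psmb6 and Psmb7 (x axis), with 1 point per library coloured by genotype and bars for the mean and SD of 3 libraries. Psmd6 is the gene of these in which Kmt2c KO libraries (62.5 to 68.2 CPM) lie apart from WT libraries (95.9 to 104.4 CPM) and pass the test.

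Kmt2d loss gave no called proteasome gene in tumour cells by edgeR (0 of 34, with 2.03% of all 13764 genes called), with 5 of the 34 at an unadjusted p below 0.05, and DESeq2 also called 0 with 4 at an unadjusted p below 0.05. Unless the count over all genes stands beside them, counts at an unadjusted p below 0.05 are not read as results, here and below. The median log2 fold change of the 34 genes was -0.09 against 0.01 over all genes. Psmd6 had a log2 fold change of -0.28 ± 0.09 SE (adjusted p = 0.154) and Psmd2 of 0.24 ± 0.08 SE (adjusted p = 0.175). Psmc4, an ATPase of the base, was at 140.8, 142.0 and 137.1 CPM in WT, 136.9, 125.9 and 133.1 CPM in Kmt2c KO and 123.7, 123.2 and 122.5 CPM in Kmt2d KO libraries. The 3 Kmt2d KO values were close together and below the others, but the difference from WT missed the threshold (-0.21 ± 0.07 SE, adjusted p = 0.157). The catalytic subunits Psmb5 (-0.09 ± 0.11 SE), Psmb6 (-0.10 ± 0.07 SE) and Psmb7 (-0.02 ± 0.11 SE) had adjusted p of 0.738, 0.521 and 0.966.

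Compared directly, Kmt2d KO and Kmt2c KO tumour cells differed in no proteasome gene by edgeR, where 0% of all genes were called and 2459 genes, 1 of them a proteasome gene, had an unadjusted p below 0.05. Psmd6 had a log2 difference of 0.33 ± 0.09 SE (adjusted p = 0.121), the ATPase Psmc5 of -0.14 ± 0.07 SE (adjusted p = 0.287) and the alpha subunit Psma7 of -0.21 ± 0.10 SE (adjusted p = 0.302). Psmb5 (0.15 ± 0.11 SE), Psmb6 (0.00 ± 0.07 SE) and Psmb7 (-0.17 ± 0.11 SE) had adjusted p of 0.504, 0.991 and 0.455. DESeq2 called 1 gene, Psmd6 (adjusted p = 0.0391). Without Kmt2d KO library 2, edgeR called 2 genes, Psmd6 higher in Kmt2d KO (0.40, adjusted p = 0.00682) and Psmb7 lower (-0.31, adjusted p = 0.0179). In that library Psmb7 stood at 86.1 CPM against 65.3 and 64.2 CPM in the other Kmt2d KO libraries. The shares of all genes called by DESeq2 and without that library are not given, so these counts have no background beside them.

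**Figure D3:**
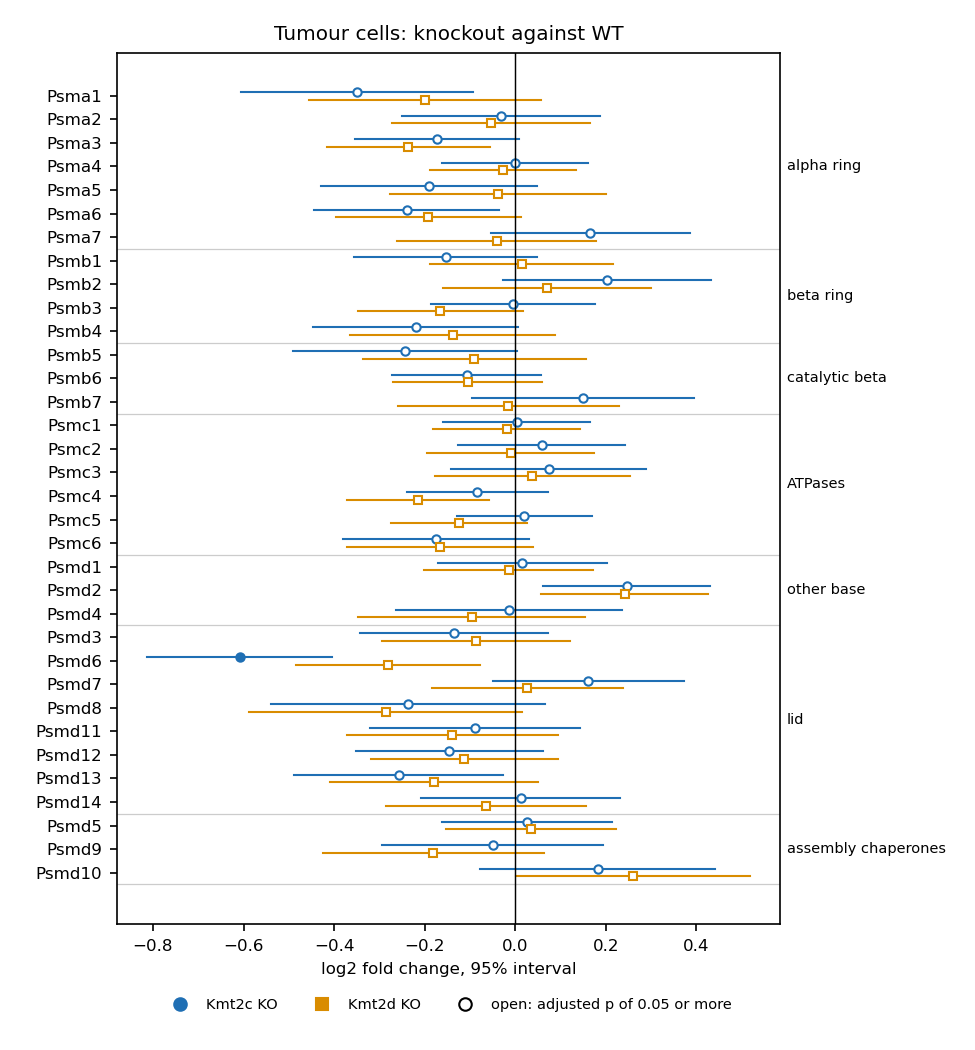
Log2 fold change of each constitutive proteasome gene in tumour cells (x axis) for Kmt2c KO and Kmt2d KO against WT, with 95% intervals from edgeR, filled points for adjusted p below 0.05 and genes grouped by role. Most points are open, and Psmd6 in Kmt2c KO (-0.61) is the called gene.

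In contrast to the constitutive genes, their immunoproteasome counterparts rose in Kmt2c KO tumour cells. Of a list of 37 other genes of the pathway, 10 rose and 2 fell in tumour cells when Kmt2c KO was set against WT, and 0 passed in Kmt2d KO. Over all genes tested, 9.87% rose and 9.3% fell in Kmt2c KO, and 2.03% were called in Kmt2d KO. Psmb9 rose by 2.67 ± 0.37 SE on the log2 scale (adjusted p = 0.00164), Psmb10 by 2.10 ± 0.39 SE (adjusted p = 0.00622) and Psmb8 by 1.58 ± 0.23 SE (adjusted p = 0.00227). The activator subunits Psme1 (0.92) and Psme2 (0.82), which cap the core particle, the ubiquitin-binding Zfand5 (0.53), the assembly factor Psmg4 (0.41) and Ufd1 (0.32), a cofactor of the unfoldase Vcp, were among the others that rose. Usp14, a deubiquitinase of the regulatory particle (-0.74), and the small lid subunit Sem1 (-0.29) were lower. Markers of other cells also differed between the genotypes in the tumour cells. The summed list of 8 macrophage markers was at 8.4, 5.6 and 8.3 CPM in WT, 13.1, 18.1 and 15.9 CPM in Kmt2c KO and 5.8, 11.5 and 7.1 CPM in Kmt2d KO libraries, with none of the 8 at 0 over all tumour cells. The list of 5 fibroblast markers, also with none at 0, was at 206.9 to 314.2 CPM in WT, 113.0 to 144.3 CPM in Kmt2c KO and 109.9 to 222.2 CPM in Kmt2d KO libraries. The endothelial list was at 0.2 to 0.5 CPM in WT, 0.7 to 1.0 CPM in Kmt2c KO and 0.3 to 1.5 CPM in Kmt2d KO libraries. The sum of the tumour markers H2BMc, Krt8 and Krt18 was at 617.9 to 671.6 CPM in WT, 373.6 to 491.2 CPM in Kmt2c KO and 416.8 to 580.2 CPM in Kmt2d KO libraries. Depth also moved with genotype, with a median of 18930, 13514 and 23820 UMIs per tumour cell in WT, 8469, 10374 and 11390 in Kmt2c KO and 11018, 12881 and 14311 in Kmt2d KO libraries. The share of barcodes over the mitochondrial limit, given above, was higher in 2 WT libraries than in any KO library. The part of the markers, of depth and of the mitochondrial limit in these differences, and in that of Psmd6 from the same cells, was not tested.

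Set against the catalytic subunit that each replaces, the ratio of Psmb8 to Psmb5 counts was 0.786, 0.785 and 0.883 in WT, 2.68, 2.79 and 3.29 in Kmt2c KO and 1.00, 2.59 and 1.09 in Kmt2d KO libraries. The ratio of Psmb9 to Psmb6 was 0.214, 0.216 and 0.287 in WT, 1.60, 1.72 and 1.56 in Kmt2c KO and 0.430, 1.34 and 0.472 in Kmt2d KO libraries. The ratio of Psmb10 to Psmb7 was 0.733, 0.710 and 0.899 in WT, 2.74, 3.38 and 2.95 in Kmt2c KO and 0.964, 2.49 and 1.13 in Kmt2d KO libraries. In each pair the Kmt2c KO libraries were above the other groups, and Kmt2d KO library 2 lay nearer to them than to the other two of its genotype. With that library, Psmb8 (0.78, adjusted p = 0.123), Psmb9 (1.53, adjusted p = 0.0569) and Psmb10 (1.03, adjusted p = 0.199) did not pass in Kmt2d KO against WT. Without it, Psmb8 (0.36, adjusted p = 0.0344) and Psmb9 (0.83, adjusted p = 0.00236) passed with smaller differences and Psmb10 did not (0.26, adjusted p = 0.279). Also without it, each of the 3 was lower in Kmt2d KO than in Kmt2c KO (Psmb8 -1.23, Psmb9 -1.83 and Psmb10 -1.84, adjusted p = 3.24e-06, 2.83e-06 and 3.27e-06), against -0.80, -1.13 and -1.07 with no call when it was kept. Library 2 was singled out in part on the levels of these same 3 genes. The edgeR calls without it are therefore no independent test.

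In host cells, which did not carry the edit, no constitutive proteasome gene was called by genotype. In macrophages 32 of the 35 genes passed the count filter (Psma8, Psmd5 and Psmd10 did not), and by edgeR 0 were called in Kmt2c KO against WT (8.64% of all genes called), in Kmt2d KO against WT (0.453%) and in Kmt2d KO against Kmt2c KO (0.317%), with 2, 1 and 2 genes at an unadjusted p below 0.05 and 0 called by DESeq2 in each. Psmb7 was at 42.8, 36.2 and 46.1 CPM in macrophages of WT tumours, 76.4, 71.2 and 69.5 CPM in those of Kmt2c KO tumours and 65.1, 77.3 and 92.1 CPM in those of Kmt2d KO tumours. The WT levels rest on few UMIs, since the macrophages of a WT library held 138310 to 260547 UMIs over all genes. The 6 KO libraries were above the WT ones, but the differences missed the threshold (0.79 ± 0.31 SE, adjusted p = 0.144, and 0.87 ± 0.34 SE, adjusted p = 0.461). The 5 summed fibroblast markers separated in the same way in the macrophages, at 7.1, 0 and 3.8 CPM in WT and 33.2 to 82.9 CPM in the 6 KO libraries, and their part in this was not tested. Psmb5 had log2 fold changes of -0.30 ± 0.28 SE and 0.11 ± 0.29 SE and Psmb6 of -0.26 ± 0.22 SE and -0.09 ± 0.23 SE in macrophages of Kmt2c KO and Kmt2d KO against WT tumours.

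In endothelial cells the same 32 genes were tested and by edgeR 0 were called in the 3 contrasts (6.39%, 0.037% and 0.0556% of all genes called), with 1, 3 and 2 at an unadjusted p below 0.05. Psmd6 was at 100.4, 100.6 and 76.4 CPM in endothelial cells of WT tumours, 17.2, 43.0 and 82.2 CPM in those of Kmt2c KO tumours and 104.4, 84.7 and 80.7 CPM in those of Kmt2d KO tumours. One Kmt2c KO library lay within the WT range, and the difference missed the threshold (-0.91 ± 0.35 SE, adjusted p = 0.139). The library at 17.2 CPM held 174048 UMIs over all genes in this class, so its level rests on few UMIs. The summed regulatory particle was between 2148 and 2193 CPM in endothelial cells of WT tumours, between 1873 and 2047 CPM in those of Kmt2c KO tumours and between 1675 and 1991 CPM in those of Kmt2d KO tumours. Both knockouts were below WT, and no test was made. Psmb5 (-0.28 ± 0.26 SE), Psmb6 (-0.04 ± 0.22 SE) and Psmb7 (-0.23 ± 0.27 SE) were not called in Kmt2c KO, nor in Kmt2d KO (0.00 ± 0.24, -0.11 ± 0.21 and -0.32 ± 0.25 SE).

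The difference between the classes in the effect of genotype was tested itself. For macrophages minus tumour cells, 0 of 34 genes were called for Kmt2c KO (4.8% of all genes called, 3 of the 34 at an unadjusted p below 0.05) and 0 for Kmt2d KO (1.48%, 1 at an unadjusted p below 0.05). Psmd6 was at 21.4, 57.8 and 46.1 CPM in macrophages of WT tumours and 48.6, 49.8 and 50.7 CPM in those of Kmt2c KO tumours, and its effect differed from that in tumour cells by 0.88 ± 0.40 SE (95% interval 0.09 to 1.67, adjusted p = 0.270). The library at 21.4 CPM held 140293 UMIs over all genes in this class, so this level too rests on few UMIs. For endothelial minus tumour cells, in a comparison added after the data were seen, 0 of 34 genes were called for Kmt2c KO (3.1% of all genes called, 1 of the 34 at an unadjusted p below 0.05) and for Kmt2d KO (0.731%, 3 at an unadjusted p below 0.05). Without Kmt2d KO library 2 the 4 counts were also 0 (4.87% and 0.713% of all genes called for macrophages, 3.55% and 0.803% for endothelial cells), with 3, 1, 1 and 3 at an unadjusted p below 0.05. In endothelial cells of all libraries, Psmd6 differed for Kmt2c KO by -0.44 ± 0.34 SE (95% interval -1.11 to 0.23).

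Some of the genes differed between the cell classes of the same tumours, as did a large part of all genes. The library was a block in these tests over 9 libraries. In macrophages, 15 of 34 genes were lower than in tumour cells and 0 were higher. Over all 11373 genes, 34.9% were lower and 25.6% higher, and the median log2 fold change was -0.28 for the proteasome genes and -0.20 for all. The regulatory particle had 10 of its 17 genes lower, among them 6 of 8 lid genes, and the core particle 4 of 14. Psmd2 ranged from 166.2 to 211.0 CPM (median 199.1) in tumour cells and from 77.3 to 147.3 CPM (median 107.5) in macrophages. The ranges did not overlap, and Psmd2 was lower in 9 of 9 libraries (-0.86 ± 0.12 SE, adjusted p = 2.15e-06).

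The lid subunit Psmd13 ranged from 131.5 to 174.3 CPM (median 160.9) in tumour cells and from 41.7 to 128.3 CPM (median 84.6) in macrophages (-0.82 ± 0.15 SE, adjusted p = 3.29e-05, lower in 9 of 9 libraries). The base chaperone Psmd5 ranged from 39.9 to 44.9 CPM (median 43.2) in tumour cells and from 7.7 to 46.0 CPM (median 29.0) in macrophages, with overlap (-0.83 ± 0.23 SE, adjusted p = 0.00311, lower in 7 of 9 libraries). In all, 13 of the 34 genes were lower in macrophages in every library, as were 24.8% of all genes. The catalytic subunits did not pass, with -0.18 ± 0.12 SE for Psmb5 (adjusted p = 0.192), 0.20 ± 0.11 SE for Psmb6 (adjusted p = 0.114) and -0.19 ± 0.15 SE for Psmb7 (adjusted p = 0.279). The ratio of regulatory to core particle transcripts was 0.599 ± 0.059 (SD, n = 9) in macrophages, from 0.509 to 0.671, and each of these values was below the lowest value of tumour cells, 0.729. Of the 37 other pathway genes, 12 were higher and 13 lower (25.6% and 34.9% of all genes). Psmb8 (1.13), Psmb9 (1.09) and Psmb10 (1.06) were among the higher ones, each in 9 of 9 libraries. These values are taken over the genotypes, and the effect of Kmt2c KO on each of these genes differed between the classes, as given below.

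Endothelial cells showed genes on both sides. Of 34 genes, 9 were higher than in tumour cells and 5 lower, where 27.2% of all 11458 genes were higher and 36.6% lower, and the median log2 fold change was 0.08 for the proteasome genes and -0.18 for all. Psmc4 ranged from 155.1 to 253.7 CPM (median 223.2) in endothelial cells and from 122.5 to 142.0 CPM (median 133.1) in tumour cells. It was higher in 9 of 9 libraries with no overlap (0.70 ± 0.10 SE, adjusted p = 9.45e-07). The alpha subunit Psma2 ranged from 160.9 to 240.8 CPM (median 208.9) in endothelial cells and from 116.7 to 138.8 CPM (median 134.1) in tumour cells, again with no overlap (0.67 ± 0.10 SE, adjusted p = 1.55e-06). The ATPase Psmc3 was higher in 9 of 9 libraries (174.8 ± 26.6 against 137.4 ± 9.6 CPM, SD, n = 9, 0.40 ± 0.10 SE, adjusted p = 0.0014), a call that was lost in the KO libraries alone (0.19, adjusted p = 0.215).

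On the lower side of the endothelial contrast stood the genes that were also lower in macrophages. Psmd2 ranged from 95.6 to 150.3 CPM in endothelial cells, below the range of tumour cells (-0.66 ± 0.10 SE, adjusted p = 4.51e-06). Psmd13 was at 100.6 ± 32.3 CPM against 154.3 ± 15.7 CPM (SD, n = 9, -0.56 ± 0.12 SE, adjusted p = 0.000334), and Psmd5 at 24.6 ± 9.9 CPM against 42.7 ± 1.6 CPM (-0.77 ± 0.19 SE, adjusted p = 0.000888). Each of the 3 was lower in 9 of 9 libraries. Of the catalytic subunits, Psmb5 was higher (210.6 ± 53.3 against 174.1 ± 18.2 CPM, 0.32 ± 0.10 SE, adjusted p = 0.00736, higher in 7 of 9 libraries), a call lost in the KO libraries alone (0.24, adjusted p = 0.138). Psmb6 just passed (0.22 ± 0.09 SE, adjusted p = 0.0432), a call lost under 9 of 14 alternatives, and Psmb7 did not (0.19 ± 0.13 SE, adjusted p = 0.202). The ratio of regulatory to core particle was 0.693 ± 0.037 (SD, n = 9), from 0.640 to 0.750, and overlapped that of tumour cells. With the KO libraries alone, a fit with fewer samples, 7 genes in place of 14 were called. The share of all genes called in that fit is not given, so this count has no background beside it. Of the 37 other pathway genes, 15 were higher and 8 lower (27.2% and 36.6% of all genes).

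**Figure D4:**
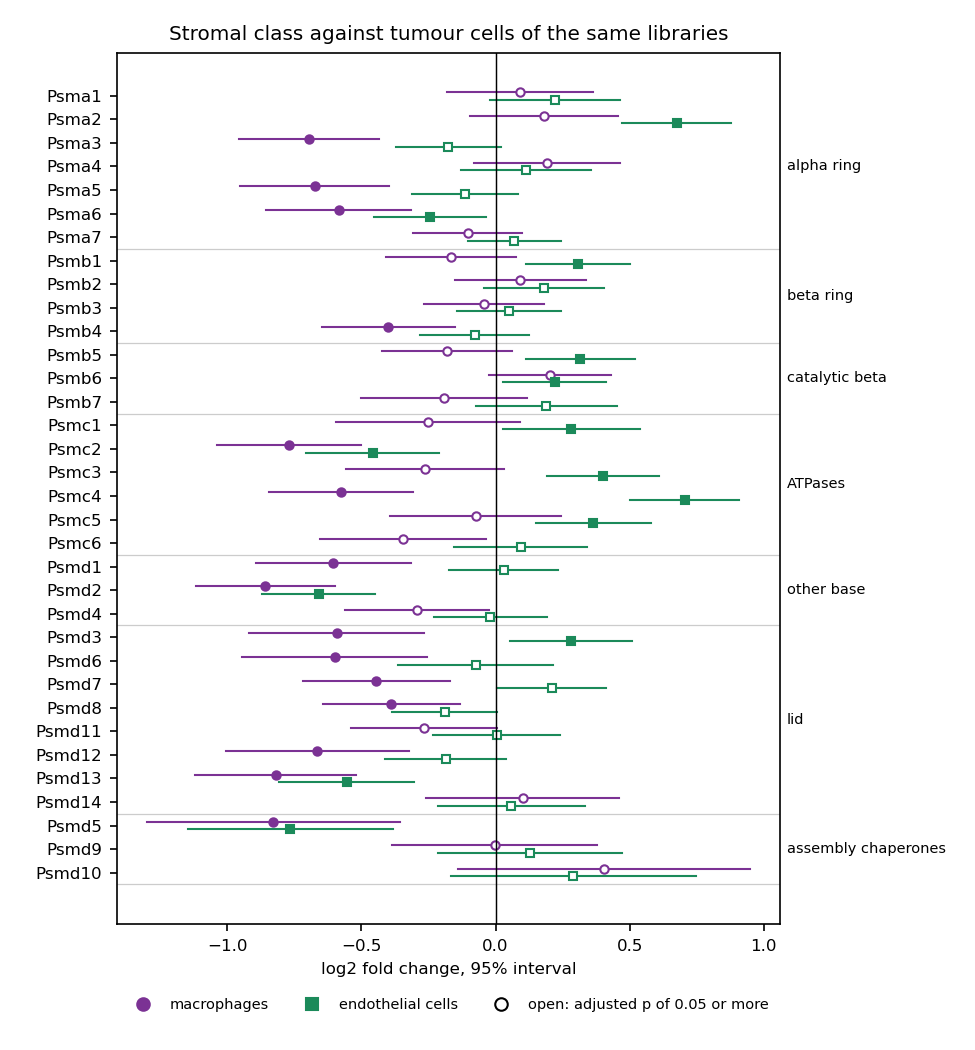
Log2 fold change (x axis) of each constitutive proteasome gene in macrophages and in endothelial cells against tumour cells, with 95% intervals from edgeR and filled points for adjusted p below 0.05. Psmd2, Psmd13 and Psmd5 lie below 0 in both classes, and Psmc4 lies at 0.70 in endothelial cells and at -0.58 in macrophages.

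Set directly against macrophages, endothelial cells had 11 of 32 genes higher and 0 lower, with 29.5% of all 4007 genes higher and 30.2% lower and a median of 0.24 against -0.01. Psmc4 ranged from 155.1 to 253.7 CPM in endothelial cells and from 46.0 to 115.7 CPM in macrophages, with no overlap (1.19 ± 0.14 SE, adjusted p = 1.08e-06). The lid subunit Psmd3 was at 116.6 ± 25.6 CPM against 64.0 ± 22.3 CPM (SD, n = 9, 0.77 ± 0.18 SE, adjusted p = 0.00108), and Psmd7, the partner of the deubiquitinase Psmd14 in the lid, from 128.8 to 224.1 CPM against 61.4 to 144.1 CPM, with overlap (0.57 ± 0.17 SE, adjusted p = 0.00747). Psmb5 was higher in 9 of 9 libraries (0.38 ± 0.11 SE, adjusted p = 0.00815), whereas Psmb6 (-0.10, adjusted p = 0.527) and Psmb7 (0.23, adjusted p = 0.342) did not pass. Without WT library 3 the count was 7, and with the KO libraries alone it was 4. In the KO libraries alone Psmb5 (0.33, adjusted p = 0.0812) and Psmd7 (0.35, adjusted p = 0.113) were no longer called. These fits held fewer samples, and the shares of all genes called in them are not given. Of the pathway genes tested, 9 of 27 were higher and 5 lower.

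Over the contrasts with tumour cells, 5 genes were called lower in both host classes (Psma6, Psmc2, Psmd2, Psmd5 and Psmd13), 2 were lower in macrophages and higher in endothelial cells (Psmc4 and Psmd3), and 7 were higher in endothelial cells than in both other classes (Psma2, Psmb1, Psmb5, Psmc1, Psmc3, Psmc4 and Psmd3). Over all genes tested in both contrasts of each set, the shares were 24.3%, 4.12% and 23.2%. These contrasts share their tumour cells or their endothelial cells. The gated macrophages held a median of 1673.5 to 3812 UMIs per cell and the endothelial cells 3248 to 8310, against 8469 to 23820 in tumour cells. In the macrophages the summed endothelial markers reached 133.5 CPM and the fibroblast markers 82.9 CPM. The dendritic markers reached 120.3 CPM, the neutrophil markers 73.3 CPM and the mural markers 43.4 CPM in the macrophages. In the endothelial cells the macrophage markers reached 28.7, the fibroblast markers 184.9 and the mural markers 249.4 CPM, each from 0 in the lowest library. The part of these values in the class differences was not tested.

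In tumour cells, the proteasome genes were higher in cells that held transcripts of proliferation genes. This comparison was added after the data were seen. It set the 5455 tumour cells with a UMI of Mki67 or Top2a, called cycling here, against the other 9780 in the same libraries. All 34 genes tested were higher in cycling cells by edgeR with the library as a block, where 35.9% of all 12005 genes were higher and 38.5% lower, and the median log2 fold change was 0.35 for the proteasome genes and -0.03 for all. The changes ran from 0.15 for Psmd4 to 0.66 for Psmd14, and 32 of the 34 genes were higher in cycling cells in each of the 9 libraries, the exceptions being Psmc1 and Psmd10. Over all genes tested, 23% were higher in every library.

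Psmd14, the deubiquitinase of the lid that removes ubiquitin chains, was at 85.8, 90.0 and 89.3 CPM in cycling cells of WT, 91.0, 90.6 and 89.8 CPM in those of Kmt2c KO and 80.5, 99.2 and 82.6 CPM in those of Kmt2d KO libraries. In the other tumour cells Psmd14 was at 60.5, 56.4 and 60.5 CPM in WT, 61.7, 60.2 and 67.3 CPM in Kmt2c KO and 54.7, 60.8 and 52.5 CPM in Kmt2d KO libraries. The ranges did not overlap (0.66 ± 0.04 SE, adjusted p = 2.01e-11). Psma1 (98.2 ± 12.7 against 70.2 ± 8.0 CPM, SD, n = 9, 0.55, adjusted p = 1.82e-10) and Psmd13 (179.4 ± 19.4 against 128.6 ± 11.8 CPM, 0.55, adjusted p = 2.46e-10) had the next largest changes. The 3 catalytic subunits rose, Psmb5 by 0.40 ± 0.03 SE (adjusted p = 4.84e-09), Psmb6 by 0.35 ± 0.03 SE (adjusted p = 1.31e-08) and Psmb7 by 0.38 ± 0.05 SE (adjusted p = 7.69e-07). Psmd4, a ubiquitin receptor, changed least (149.0 ± 12.5 against 141.4 ± 11.2 CPM, 0.15 ± 0.03 SE, adjusted p = 0.000202). The ratio of regulatory to core particle transcripts was 0.738 ± 0.009 in cycling cells and 0.739 ± 0.012 in other tumour cells (SD, n = 9).

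Cycling cells were also deeper, with a median of 12786 to 37418 UMIs per cell against 7063 to 17294, and a deeper cell is more likely to show a UMI of Mki67 or Top2a. Among cells with 10000 to 20000 UMIs, with band medians of 13977 to 17047.5 against 12111 to 15055 UMIs, 18 of 34 genes were called, all higher. In this band 25.1% of all 10954 genes were higher and 27% lower. Of the 34, 29 had a positive log2 fold change, with a median of 0.14 against -0.02 over all genes. Psmd14 (0.39, adjusted p = 1.9e-06), Psma1 (0.21, adjusted p = 0.00488), Psmd13 (0.28, adjusted p = 0.000902), Psmb5 (0.16, adjusted p = 0.0135), Psmb6 (0.20, adjusted p = 0.00404) and Psmb7 (0.20, adjusted p = 0.00389) kept their calls in that band, and Psmd4 did not (-0.01, adjusted p = 0.905). In the band, WT libraries 1 and 3 held only 21 and 20 cycling cells, with median mitochondrial shares of 5.58% and 6.11%. The cycling cells of all depths in those libraries had 2.51% and 2.60%. The part of these few cells, and the remaining part of depth, in the result was not tested. Of the 37 other pathway genes, 25 were higher and 8 lower in cycling cells of all depths (35.9% and 38.5% of all genes). The assembly factors Psmg1 (0.62) and Pomp (0.51) were among the higher ones, and the transcription factors Nfe2l1 (-0.58) and Nfe2l2 (-0.39) and the ubiquitin-binding Zfand5 (-0.77) among the lower ones. Of the immunoproteasome subunits, Psmb9 was higher (0.37), Psmb10 lower (-0.26) and Psmb8 was not called (-0.08, adjusted p = 0.0522).

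**Figure D5:**
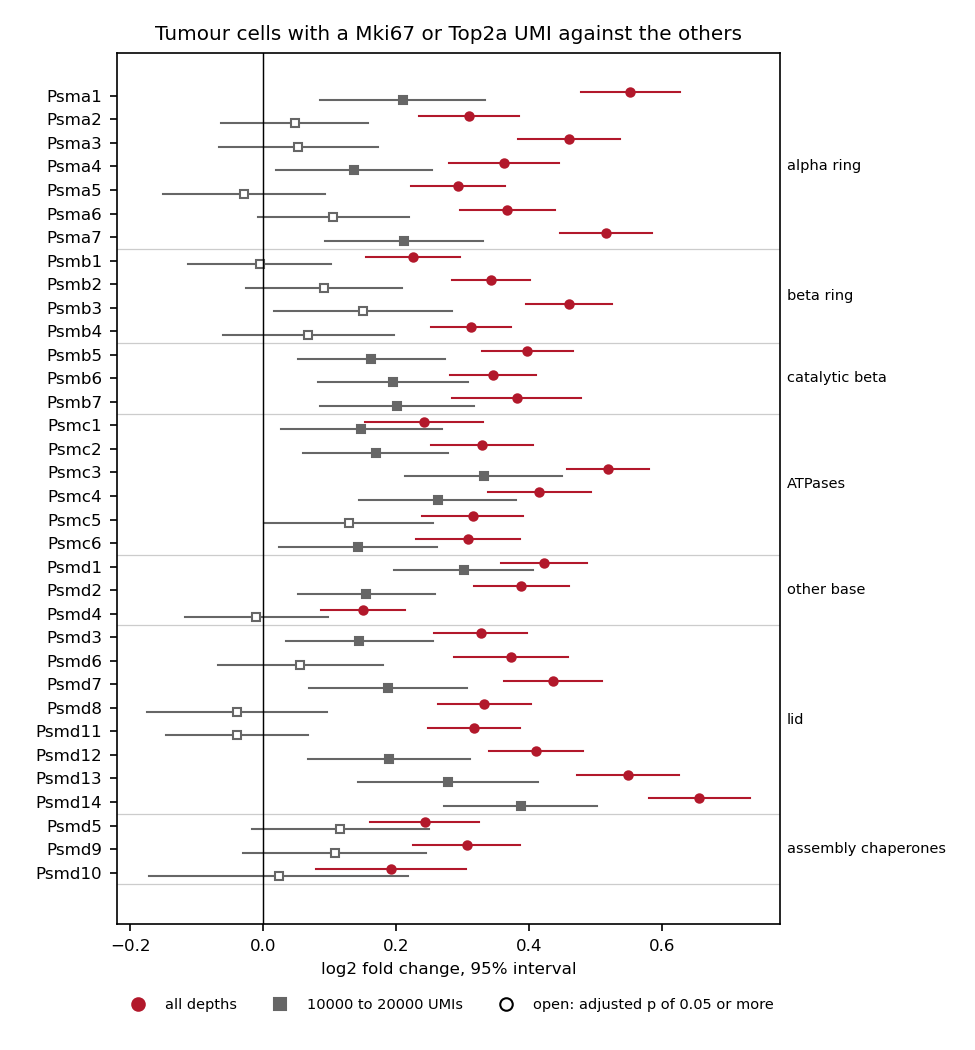
Log2 fold change (x axis) of each constitutive proteasome gene in cycling against other tumour cells, over all cells and within cells of 10000 to 20000 UMIs, with 95% intervals from edgeR and open points for adjusted p of 0.05 or more. Over all cells the 34 genes lie between 0.15 and 0.66, and within the band 29 of 34 lie above 0.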

How the data were processed

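Whole-tumour suspensions were sequenced with a 10x Genomics 5' kit, and per the labels and the study's methods the authors made the counts with Cell Ranger 7.0.1 against mm10 and aggregated 9 libraries. The deposited matrix holds raw UMI counts per gene and barcode. The sources used here do not say whether aggregation thinned the libraries to a common depth. Reads that fit more than 1 gene are not counted by that tool, so genes with near-identical copies may be understated.

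Cells with more than 500 and fewer than 7500 genes and less than 15% mitochondrial counts were kept, the limits of the study. No doublet caller was run. The tumour gate took cells with H2BMc and no UMI of Ptprc, Pecam1 or Cdh5. The host gates exclude cells with H2BMc or Krt8, or with more than 1 marker of the other host class. Counts were summed per library and class and divided by the class total (CPM, per 1000000). All genes were tested with edgeR 4.0.16 (R 4.3.3, filterByExpr, TMM, glmQLFit, glmQLFTest), the 3 genotypes in 1 fit, with Benjamini-Hochberg adjustment over all genes tested and a threshold of 0.05. Contrasts between classes had the library as a block. DESeq2 1.42.0, RLE scaling, no count filter, other gates and leaving out each library were alternatives, and single genes were followed through them. Scripts were tested on simulated data: with 3 libraries a group, 69.7% of genes changed 1.5-fold and 2.94% of those changed 1.25-fold were called in tumour cells (Kmt2c KO against WT, 13378 genes), and 19.7% of those changed 2-fold in macrophages (3859 genes). Small changes, above all in macrophages and endothelial cells, could therefore pass unseen. The simulations changed fewer genes than were called in the data, and only genes above the median level. Their rates need not hold for the real tests.

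Named were Psmb5, Psmb6 and Psmb7 in each contrast, the called genes with the largest changes (3 each way, 5 in tumour cells by genotype) or, with fewer than 3 calls in tumour cells, the 3 with the smallest p. The other pathway list held 37 genes with a count (immunoproteasome, activators, assembly, ubiquitin receptors and deubiquitinases, shuttles, transcription factors and ubiquitin). The genes and lists were chosen with earlier results of these data known. Psmd4 in cycling cells, the genes that overlap between contrasts, the promoters shown and the examples of the pathway list were chosen after their values were seen. Some genes of the pathway list are not reported here by name.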

Additional observations from a re-analysis of the deposited data

Results flagged for a closer look

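No constitutive proteasome gene had an effect of genotype that differed between classes by the edgeR test of the difference itself. The following other pathway genes did, given as the log2 effect of knockout in the host class minus that in tumour cells. A negative value need not be a fall in the host class. For Kmt2c KO and macrophages, these were Psmb8 (-0.92, adjusted p = 0.000687), Psmb9 (-1.70, adjusted p = 3.72e-10), Psmb10 (-0.90, adjusted p = 0.0144) and Usp14 (1.13, adjusted p = 0.0154). For Kmt2d KO and macrophages it was Psmb9 (-0.98, adjusted p = 0.0131). For Kmt2c KO and endothelial cells, a comparison added after the data were seen, these were Psmb8 (-0.92, adjusted p = 0.000167), Psmb9 (-1.91, adjusted p = 3.1e-17), Psmb10 (-0.71, adjusted p = 0.035) and Ube3c (-1.39, adjusted p = 0.0399). For Kmt2d KO and endothelial cells these were Psmb9 (-1.10, adjusted p = 8.53e-05) and Usp14 (1.12, adjusted p = 0.0244). In macrophages and in endothelial cells, the CPM of Psmb8, Psmb9 and Psmb10 were higher in each Kmt2c KO library than in each WT library. The share of all genes separated in this way in the host classes is not given, so this separation has no background beside it. The values for Kmt2d KO include library 2, which stood apart in the immunoproteasome genes of the host classes too. Its ratio of Psmb8 to Psmb5 counts was 7.48 in macrophages, against 2.06 and 2.50 in the other two, and 5.19 in endothelial cells, against 1.17 and 2.08. Without it, an alternative chosen after seeing the data, Psmb9 was no longer called for Kmt2d KO and macrophages (-0.83, adjusted p = 0.231). It was still called for endothelial cells (-0.76, adjusted p = 0.023), as was Usp14 (1.29, adjusted p = 0.00864), and the genes named here for Kmt2c KO kept their calls. Groups held 3 libraries, too few for a search for single outlying libraries.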

How the results depend on the processing

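Called genes in tumour cells of Kmt2c KO against WT numbered 1, and 3 by DESeq2, 2 with only the groups of the contrast, 2 with at least 2 H2BMc UMIs, 2 with a UMI of both H2BMc and Krt8, 3 in cells with no Mki67 or Top2a UMI, and 1 to 4 when a library was left out. The 4 came without Kmt2d KO library 2, and Psmd6 was among the calls under each alternative. For Kmt2d KO against Kmt2c KO the count of 0 became 1 by DESeq2 and 0 to 2 with a library left out. For Kmt2d KO against WT, and for the genotype contrasts in macrophages and endothelial cells, it was 0 under each alternative run. Macrophages against tumour cells gave 12 to 17 calls with a library left out (15 with all), endothelial against tumour cells 10 to 14 (14 with all) and 7 in KO libraries only, and endothelial cells against macrophages 7 to 13 (11 with all, 7 without WT library 3) and 4 in KO libraries only. The 34 calls in cycling cells became 18 in the band of 10000 to 20000 UMIs and stayed at 34 with a library left out. The fit with KO libraries only held fewer samples and no WT library. The cause of the changes in counts was not tested. Shares of all genes called are not given for most of these alternatives. Of the named genes, 2 turned: Psmb7 in endothelial against tumour cells (-0.021, adjusted p = 0.93, KO libraries only) and Psmd4 in cycling cells (-0.010, adjusted p = 0.905, in the band), neither then called. Over all alternatives, 173 counts stayed within 1.5 times and 13 did not. Of the values of single genes, 575 kept their side of the threshold, 27 passed it newly, 14 lost it and 2 turned.

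No paired analysis was possible because, between the genotypes, the libraries carry a letter and not the replicate number of the labels. Contrasts between cell classes and with cycling cells had the library as a block. Depth limits the host classes most, where classes hold as few as 29 cells in a library.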
